A study of Mus musculus with 8 samples.

Results

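The DNA methylation and TET genes were followed from pachytene spermatocytes (PS) to round spermatids (RS) of the mouse testis. The 8 genes are *Dnmt1*, *Uhrf1*, *Dnmt3a*, *Dnmt3b*, *Dnmt3l*, *Tet1*, *Tet2* and *Tet3*. They were taken by gene symbol and not by a rule on measured values, though with earlier results of these data known. They are 8 of 23343 genes in the RNA-seq tables. Of 211311 H3K27ac intervals in the ChIP-seq lists, 118 carried the name of one of the 8 genes or lay within 2 kb of one of their start sites. PS are cells in the long prophase of meiosis I, and RS are the haploid cells that form after the meiotic divisions. RNA-seq was on PS and RS of *Rnf8*- and *Scml2*-dKO mice, which lack the ubiquitin ligase RNF8 and the germline Polycomb protein SCML2. H3K27ac ChIP-seq was on PS and RS of wild type mice. Every sample came from testis of adult C57BL/6 animals, with 2 replicates in each of the 4 groups. The cells were separated by BSA gravity sedimentation, for the dKO on a small scale from a single male. The stages can thus be compared within each assay, but RNA was measured in the mutant and acetylation in the wild type, and no wild type RNA was analysed here. The paper describes the 2 replicates of the H3K27ac ChIP-seq and of the dKO RNA-seq as biological. The number of wild type animals behind each ChIP-seq sample is not given in the sources used here. P-values measure the spread between these samples, part of which may still be technical.

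In mammals, DNA methylation sits mainly on the cytosine of CG dinucleotides (CpG). DNMT1 copies the mark onto the new strand after replication, guided by UHRF1, which binds hemimethylated CpG. DNMT3A and DNMT3B set the mark on unmethylated DNA, with DNMT3L as a partner without catalytic activity. The TET enzymes oxidize 5-methylcytosine, which opens the way to its removal. In the male germ line most methylation is laid down in fetal prospermatogonia, well before meiosis. H3K27ac is an acetylation of histone H3 found at active promoters and enhancers.

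The RNA-seq tables held 9655405 to 12289694 reads on genes per sample, and the ChIP-seq lists held 41095 to 74919 intervals. The most intervals were in RS replicate 1. *Rnf8* had 93, 110, 61 and 50 reads and *Scml2* had 40, 92, 44 and 98 reads in PS replicates 1 and 2 and RS replicates 1 and 2, in that order. Reads of both targeted genes were thus present in every dKO library, and with no wild type RNA to set beside them they do not check the genotype. The 6 RS markers were all higher in RS, and 4 of the 6 PS markers were lower. Markers of other cells moved as well. The summed RPKM (reads normalized for transcript length and library size) of 5 Leydig cell genes was 727 and 546 in PS and 68.0 and 42.4 in RS. That of 8 genes of spermatogonia and early meiosis was 28.3 and 21.8 in PS and 41.8 and 40.4 in RS, with 4 of the 8 higher in RS. That of 6 Sertoli cell genes was 60.9 and 28.7 in PS and 31.5 and 17.9 in RS, most of it from *Clu* (RPKM of 57.9 and 27 in PS, 28.1 and 14.5 in RS), which did not pass. The 2 Sertoli cell genes that passed, *Wt1* and *Rhox5*, rose in RS. Of the peritubular markers, *Acta2* and *Myh11*, neither passed. The macrophage markers rose, *Csf1r* from an RPKM of 0.543 and 0.418 in PS to 6.68 and 5.81 in RS and *Cd68* from 0.348 and 0.536 to 3.26 and 2.78. The summed RPKM of these 4 genes was 3.24 and 2.49 in PS and 12.3 and 10.8 in RS. No marker in the tables was at 0 in all 4 libraries. The part of these cells in the levels given below was not tested. In these purified populations, fewer cells of a type and less RNA per cell cannot be told apart.

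The RNA of the 8 genes was mostly that of the maintenance pair at both stages. *Uhrf1* and *Dnmt1* together made up 94.2% and 94.5% of the summed RPKM of the 8 genes in the PS replicates, and 79.3% in each RS replicate. The sum itself was 93.2 and 89.7 RPKM in PS and 36.9 and 41.0 in RS. The order of mean levels in PS was *Uhrf1*, *Dnmt1*, *Dnmt3b*, *Dnmt3a*, *Dnmt3l*, *Tet3*, *Tet2* and *Tet1*. Among neighbours in that order, the ranges of *Dnmt3b* and *Dnmt3a* overlapped and all other ranges were separate. In RS the order was *Uhrf1*, *Dnmt1*, *Dnmt3l*, *Dnmt3a*, *Dnmt3b*, *Tet3*, *Tet2* and *Tet1*, each range separate from the next. *Dnmt3l* thus stood below both catalytic DNMT3 genes in PS and above both in RS.

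**Figure D1:**
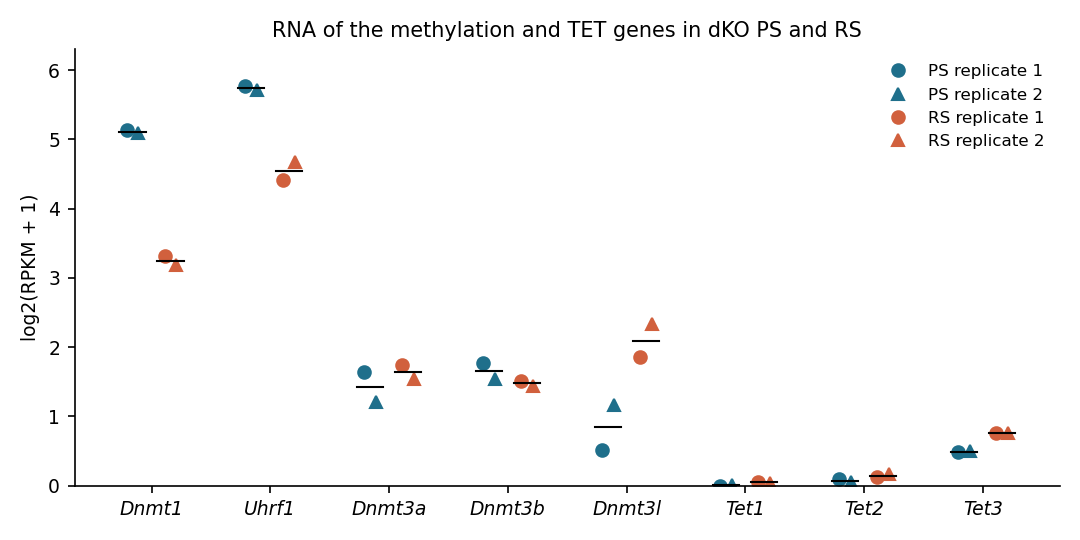
RNA level of each gene as log2(RPKM + 1) in the 4 dKO samples. Circles are replicate 1 and triangles replicate 2 of PS (blue) and RS (orange), and the black line is the mean of the 2 values. Dnmt1 and Uhrf1 are far above the other genes at both stages and lower in RS, Dnmt3l is higher in RS, and the 3 Tet genes lie near the bottom of the axis.

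Between the stages, 4 of the 7 genes that could be tested passed the threshold, an adjusted p under 0.05 and at least a 1.5-fold change in edgeR's quasi-likelihood test. *Dnmt1* and *Uhrf1* fell in RS, and *Dnmt3l* and *Tet3* rose. The share over all 14647 genes tested was 58%, with 30.4% higher and 27.6% lower in RS, so 4 of 7 is about the share found among all genes. The median log2 fold change was 0.37 over the 7 genes and 0.01 over all genes tested. The RPKM ranges of the stages did not overlap for 7 of the 8 genes, *Dnmt3a* being the exception, or 6 of the 7 tested, and 83.6% of all genes tested had ranges that did not overlap.

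*Dnmt1* (chr9:20907206-20959888, mm10, minus strand) encodes the maintenance methyltransferase. Its RPKM was 34.0 and 33.2 in the PS replicates and 8.94 and 8.08 in the RS replicates. Both RS values lay well below both PS values. The log2 fold change of RS over PS was -1.98 ± 0.13 (SE), a 3.95-fold lower level in RS (edgeR adjusted p = 6.75e-06). In PS the mean lay above 89% of all genes and in RS above 74.8%.

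*Uhrf1* (chr17:56303337-56323486, plus strand) encodes the reader of hemimethylated CpG. Its RPKM was 53.8 and 51.6 in PS and 20.4 and 24.5 in RS. It was the most abundant of the 8 genes in every sample. The log2 fold change was -1.20 ± 0.14 (SE), a 2.29-fold lower level in RS (edgeR adjusted p = 1.02e-04). *Uhrf1* RPKM was 1.58 and 1.55 times that of *Dnmt1* in PS and 2.28 and 3.03 times that of *Dnmt1* in RS. The 5 Leydig cell markers were also higher in PS, such as *Insl3* (RPKM of 593 and 450 in PS, 60.0 and 35.8 in RS). So were 4 of the 6 PS germ cell markers, such as *Piwil1* (RPKM of 286 and 326 in PS, 9.91 and 17.6 in RS), and the rest did not pass. The part of Leydig cells in the fall of *Uhrf1* and *Dnmt1* was not tested.

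The main starts of these 2 genes share a sequence feature, which is why their upstream bases are shown. The windows run from 250 bases before to 50 after a start (RefSeq, GRCm38.p6, the build of the files), and 15 such windows matched all 8 genes. The window at the main start of *Dnmt1* and that at the main start of *Uhrf1* each held 33 CpG, more than 91.4% of the 32851 promoter windows of the same length, whose median was 7. The *Dnmt3a* windows at 3806980 and 3807160 held 46 and 47 CpG, that of *Tet2* 57 and that of *Dnmt3b* 30. A high CpG count is thus not particular to this pair. The windows at the main starts of *Dnmt1* and *Uhrf1* both also held the letters TTTCGCGC. These are a form of the binding site of E2F factors, which bind promoters of many cell cycle genes. A match on either strand was present in 0.323% of all windows and in 2 of these 15. In *Uhrf1* it lies 185 to 178 bases upstream of the start, and in *Dnmt1* 219 to 212 bases upstream on the opposite strand, beyond the bases printed here. The window of *Dnmt1* also held TTTGGCGC, another form, 33 to 40 bases after the start, which 0.514% of all windows hold. Both forms contain CpG, and these shares are over all windows, not over windows as rich in CpG. Other letters were searched too. The GC box (GGGCGG) was in 12 of the 15 windows and in 35.7% of all. CCAAT was in 5 of the 15 and in 37.4% of all. The main starts of *Dnmt1* and *Uhrf1* held both of these. The cAMP response element (TGACGTCA) was in 0 of the 15 and in 1.79% of all. A match is a description of the letters and not of binding. The lines give the bases upstream of each start that lie outside every exon of the gene in RefSeq, 5′ to 3′ on the strand of the gene, with each CpG in capitals.
*Dnmt1*, chr9:20952624-20952707, minus strand, ending 1 base before the start: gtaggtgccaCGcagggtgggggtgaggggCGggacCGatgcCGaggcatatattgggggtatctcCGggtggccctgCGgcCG
*Uhrf1*, chr17:56304063-56304244, plus strand, ending 69 bases before the start: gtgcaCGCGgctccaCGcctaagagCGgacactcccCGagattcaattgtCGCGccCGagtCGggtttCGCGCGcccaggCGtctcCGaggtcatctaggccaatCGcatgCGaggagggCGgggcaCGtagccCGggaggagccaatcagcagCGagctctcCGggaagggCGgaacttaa

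The tables list *Dnmt1* by transcript, and the use of these rows differed between the stages. *Dnmt1* is known to use different first exons in oocytes, pachytene spermatocytes and other cells. The row of NM_001199433, which starts at 20952623, held 2158 and 2129 of the gene's estimated reads in PS and 488 and 346 in RS. The row of NM_001199431 and NM_010066, which starts further upstream at 20952979, held 108 and 32 reads in PS and 224 and 194 in RS. The first row carried 95.2% (95% Wilson interval 94.3 to 96.0) and 98.5% (97.9 to 98.9) of the reads of *Dnmt1* in PS, and 68.5% (65.0 to 71.8) and 64.1% (59.9 to 68.0) in RS. These intervals cover counting error only and not the estimate that split the reads. In a fit over 15626 rows, the first row fell by 2.52 ± 0.13 (SE) on the log2 scale (edgeR adjusted p = 5.52e-04). The second had a log2 fold change of 1.45 ± 0.53 (SE) and did not pass (adjusted p = 0.0670). The test of unequal use of rows within *Dnmt1* gave an adjusted p of 0.0143 (edgeR's diffSpliceDGE), and 15.3% of the 906 genes with at least 2 rows passed that test. The remaining row, NM_001199432, which starts at 20959888, was at 0 reads in all 4 samples, which allows 0.169% to 0.706% of the gene's reads as the upper Wilson bounds.

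The other genes with several rows gave less. Of the reads of *Uhrf1*, 96.9% and 100% in PS and 92.1% and 92.0% in RS were on the row that starts at 56304313, and its use of rows did not pass the test (edgeR adjusted p = 0.341). For *Dnmt3a*, the row of NM_153743, which starts inside the gene at 3891744, held 53.8% and 75.4% of the reads in PS and 76.4% and 45.2% in RS. The stages overlapped, and the test gave an adjusted p of 1. The 2 longer *Dnmt3a* rows held the same number of reads as each other in every sample.

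**Figure D2:**
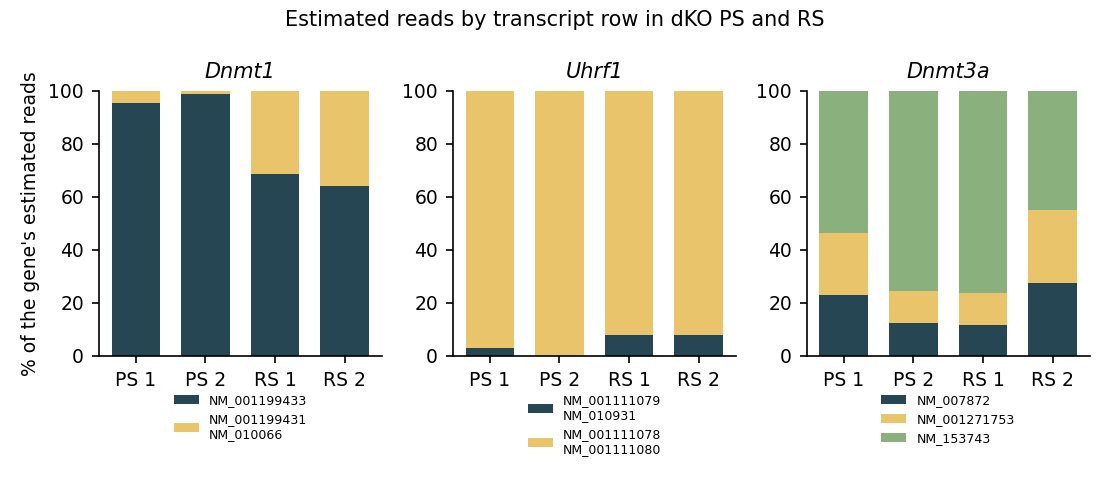
Share of the estimated reads of Dnmt1, Uhrf1 and Dnmt3a on each transcript row, in percent, in the 4 dKO samples. Rows without reads are left out. In Dnmt1 the NM_001199433 row (dark) takes nearly the whole bar in PS and 68.5% and 64.1% in RS, whereas the bars of Dnmt3a vary as much between replicates as between stages.

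Of the de novo group, the catalytic genes were at a low level at both stages and did not pass the test. *Dnmt3a* (chr12:3806980-3914443, plus strand) had an RPKM of 2.11 and 1.31 in PS and 2.35 and 1.91 in RS. These ranges overlap, and the log2 fold change was 0.37 ± 0.25 (SE, edgeR adjusted p = 0.218). Without PS replicate 1, the higher of the 2 PS values, it was 0.73 and passed (adjusted p = 0.0145), and without PS replicate 2 it was 0.098 (adjusted p = 0.712). *Dnmt3b* (chr2:153649449-153687730, plus strand) had an RPKM of 2.4 and 1.92 in PS and 1.86 and 1.72 in RS. The RS values lay just below the PS values, and the log2 fold change was -0.28 ± 0.23 (SE, adjusted p = 0.320). The RPKM ratio of *Dnmt3a* to *Dnmt3b* was 0.880 and 0.681 in PS and 1.27 and 1.11 in RS.

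*Dnmt3l* (chr10:78042287-78063615, plus strand), the partner without catalytic activity, had the largest rise of the 7 genes tested. It had 8 and 22 reads in PS and 60 and 78 in RS, or an RPKM of 0.435 and 1.24 in PS and 2.61 and 4.02 in RS. Both RS values were above both PS values, though the PS replicates differed from each other by more than 2 times. The log2 fold change was 2.05 ± 0.47 (SE), 4.14-fold (edgeR adjusted p = 0.00496). It ranged from 1.44 without PS replicate 1 to 3.02 without PS replicate 2, and passed in each case. The reads of PS replicate 1 were all placed on the longer row, which starts at 78042287, and those of the other 3 libraries all on the row that starts at 78049842. The 4 of 8 markers of spermatogonia and early meiosis that rose in RS, such as *Gfra1* (RPKM of 0.953 and 0.503 in PS, 2.84 and 2.99 in RS), moved in the same direction as *Dnmt3l*, and their part in it was not tested.

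The Tet genes were the least abundant of the set. *Tet3* (chr6:83362374-83441678, minus strand) had 49 and 50 reads in PS and 105 and 90 in RS, or an RPKM of 0.394 and 0.413 in PS and 0.688 and 0.701 in RS. The replicates were close and the stages separate. The log2 fold change was 0.82 ± 0.24 (SE), 1.77-fold (edgeR adjusted p = 0.0166). The call was lost with DESeq2 (adjusted p = 0.0712), with limma on log2(RPKM + 1) (0.0545) and without RS replicate 1 (0.0784) or RS replicate 2 (0.0818). *Tet2* (chr3:133463677-133544390, minus strand) had 7 and 4 reads in PS and 11 and 13 in RS. Its log2 fold change of 0.97 ± 0.53 (SE) did not pass (adjusted p = 0.139). *Tet1* (chr10:62804570-62880014, minus strand) had 0 and 1 reads in PS and 7 and 4 in RS. That is too few for the filter of 10 reads in 2 samples, so *Tet1* was not tested. At these depths 3 reads, the limit that a count of 0 allows, are 0.244 to 0.311 CPM (counts scaled to library size).

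H3K27ac at the promoters was read as the highest fold enrichment of any interval within 2 kb of a start in the tables, in the wild type samples. Of the 8 genes, 6 could be tested, and 1 of them, *Dnmt1*, passed the threshold, with lower acetylation in RS. Over all 13699 genes tested, 21% passed the same threshold in limma, 5.23% higher and 15.8% lower in RS, beside this 1 of 6. The median log2 difference was -0.43 over all genes and -0.50 over the 6. The median promoter was thus lower in RS, and centring each sample on the peaks common to all 4 removed 0.40 on the log2 scale. After centring, 27% of genes passed, 13.7% higher and 13.3% lower. The ranges of the stages did not overlap for 2 of the 6, *Dnmt1* and *Dnmt3b*, and for 72.7% of all genes tested. An interval was present in all 4 samples for 5 of the 8 genes, against 48.8% of all genes, and in none for *Dnmt3l* and *Tet1*, against 36.9% of all genes. With 2 samples against 2, an exact two-sided permutation test of 1 value cannot go below p = 0.333.

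The fold enrichment at the promoter of *Dnmt1* was 33.3 and 38.4 in PS and 14.2 and 9.29 in RS. These were the highest PS values of the 8 genes, and both RS values were below them. The difference of RS minus PS was -1.55 ± 0.24 (SE) on the log2(1 + fold enrichment) scale (limma adjusted p = 0.0228), and -1.16 after centring (adjusted p = 0.00177). It was between -1.27 and -1.84 when any one sample was left out. The call was lost without PS replicate 1 (adjusted p = 0.295), PS replicate 2 (0.351) or RS replicate 2 (0.0719). The merged region covers both starts with reads, and its intervals summed to 1523 and 1735 bases in PS and 1594 and 877 in RS. A weaker region in an intron of *Dnmt1* (chr9:20943180-20944661) was present in all 4 samples, at 7.0 and 7.13 in PS and 4.88 and 4.64 in RS.

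At the promoter of *Uhrf1* the fold enrichment was 23.5 and 26.3 in PS and 25.6 and 16.3 in RS. The stages overlapped, and the difference was -0.27 ± 0.26 (SE, limma adjusted p = 0.449), or 0.13 after centring, so its direction depends on the scaling. The value of 25.6 belongs to an interval of RS replicate 1 that the lists name *Arrdc5*, the neighbouring gene, and the interval over the *Uhrf1* starts itself reached 24.8. The intervals of the region over these starts summed to more bases in RS, with 3016 and 3363 bases in PS and 5573 and 4545 in RS. RS replicate 1 had 13 intervals assigned to *Uhrf1* against 4 and 5 in PS and 6 in RS replicate 2. *Dnmt1* and *Uhrf1* RNA thus both fell between the dKO stages, while the promoter difference between the wild type stages was called for *Dnmt1* and not for *Uhrf1*. The difference between the 2 genes was not tested.

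**Figure D3:**
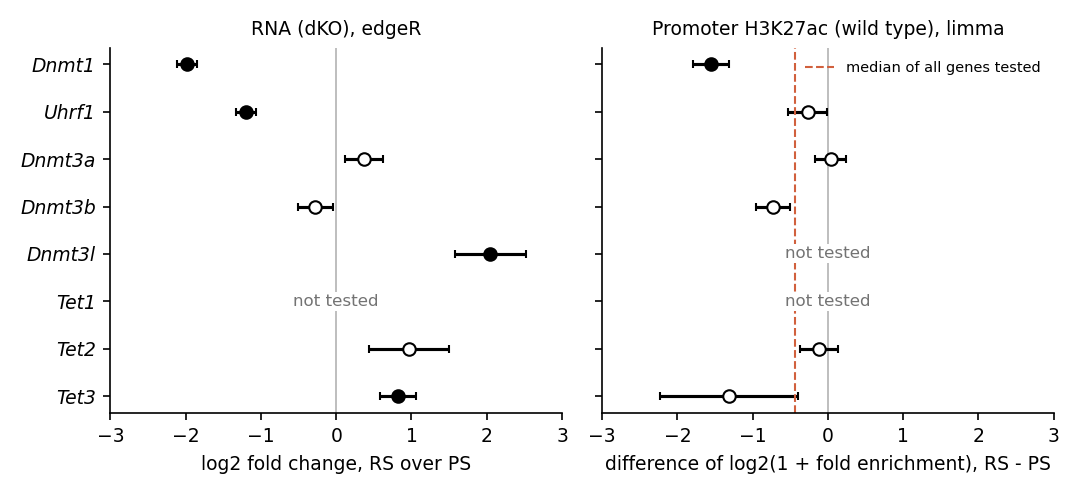
Difference between RS and PS for each gene, with its standard error. The left panel shows the log2 fold change of RNA in the dKO and the right panel the difference in log2(1 + fold enrichment) of promoter H3K27ac in the wild type. Filled points passed the threshold, open points did not, and the dashed line is the median over all genes tested for H3K27ac (-0.43).

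*Dnmt3a* has 2 separate acetylated starts, and the test over them did not pass. At the first start the fold enrichment was 11.1 and 9.87 in PS and 9.36 and 8.13 in RS, and at the internal start 8.64 and 9.32 in PS and 11.8 and 9.87 in RS. Without scaling, the RS values were thus below the PS values at the first start and above them at the internal start. The median promoter differed by -0.43 between RS and PS on the log2 scale, and the single starts were neither centred nor tested. The direction at the first start may thus depend on the scaling. Ranges that did not overlap were found for 72.7% of all genes tested. The highest value over both starts entered the test and gave 0.04 ± 0.21 (SE, limma adjusted p = 0.905), or 0.44 after centring. The internal start is that of NM_153743, the single *Dnmt3a* row with the most reads in each sample. In RS replicate 2, however, the 2 rows of the first start, with 57 reads each, together held more than its 94. Of the 3 regions with an interval in both RS samples and no PS sample, all lay in introns or an exon of *Dnmt3a*. Over all 8 genes that is 3 of 52 merged regions, or 5.77%, and 8.31% of the 90470 merged regions of the lists have that pattern.

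*Dnmt3b* and *Tet2* had an interval at the start in all 4 samples. *Dnmt3b* was at 11.1 and 9.32 in PS and 5.70 and 5.81 in RS. Both RS values were lower, but the difference of -0.73 ± 0.23 (SE) did not pass (limma adjusted p = 0.0887), and it was -0.33 after centring. *Tet2* was at 6.58 and 8.77 in PS and 6.92 and 6.97 in RS, a difference of -0.12 ± 0.25 (SE, adjusted p = 0.745), or 0.28 after centring. *Tet2* had the richest promoter of the 15 windows, with 57 CpG, more than 99.8% of all windows.

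*Dnmt3l* had no interval within 2 kb of either start in the tables, in any sample. A region inside the gene (chr10:78054065-78055818) was acetylated more broadly in RS, with 1718 and 1154 bases in RS against 146 bases in PS replicate 2 and none in PS replicate 1. Its fold enrichment was 4.93 in PS replicate 2 and 6.92 and 5.22 in the RS replicates. It covers a start of current RefSeq, 78055335, that the tables do not list. This start was taken up after the data had been seen and is given without a test. The internal starts of *Dnmt3a* and *Dnmt3l* differ in CpG content, which is why both are shown: the window of *Dnmt3a* held 18 CpG and that of *Dnmt3l* held 3, more than 70.3% and 23.3% of all windows. The bases are again those upstream of each start, with CpG in capitals.
*Dnmt3a*, chr12:3891494-3891743, plus strand: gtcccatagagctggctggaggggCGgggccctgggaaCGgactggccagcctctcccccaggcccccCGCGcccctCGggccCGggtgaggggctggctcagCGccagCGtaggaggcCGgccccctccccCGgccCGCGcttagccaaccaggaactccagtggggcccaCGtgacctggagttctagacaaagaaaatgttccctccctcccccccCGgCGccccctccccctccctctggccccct
*Dnmt3l*, chr10:78055085-78055334, plus strand: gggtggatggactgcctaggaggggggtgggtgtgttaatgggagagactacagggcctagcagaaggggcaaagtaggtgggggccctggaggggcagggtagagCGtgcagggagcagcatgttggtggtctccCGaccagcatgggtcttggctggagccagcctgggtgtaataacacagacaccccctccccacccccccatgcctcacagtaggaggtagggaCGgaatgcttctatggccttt
The 2 starts of *Dnmt3l* in the tables held 6 and 4 CpG, and all 3 windows of *Dnmt3l* were below the median of 7.

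*Tet3* and *Tet1* had acetylation away from the start in the tables. At the start of *Tet3* the fold enrichment was 5.76 and 4.38 in PS and 4.88 in RS replicate 1, with no interval in RS replicate 2. The difference of -1.31 ± 0.92 (SE, limma adjusted p = 0.319) rests on that sample, being -0.037 without RS replicate 2 and -2.59 (adjusted p = 0.0309) without RS replicate 1. As that sample is at 0, the size depends on the pseudocount, and it was -2.86 (adjusted p = 0.357) with 0.1 in place of 1. A stronger region upstream (chr6:83455589-83457386, 14.8 kb from the start) was present in all 4 samples, at 10.3 and 9.32 in PS and 11 and 6.39 in RS. It covers a start of current RefSeq, that of NM_001347313 at 83456392. *Tet1* had no interval at its start in the tables or at the start of current RefSeq, but a region in an intron (chr10:62830323-62831114, 49.3 kb inside the gene) was present in all 4 samples, at 5.35 and 4.93 in PS and 4.48 and 4.06 in RS.

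**Figure D4:**
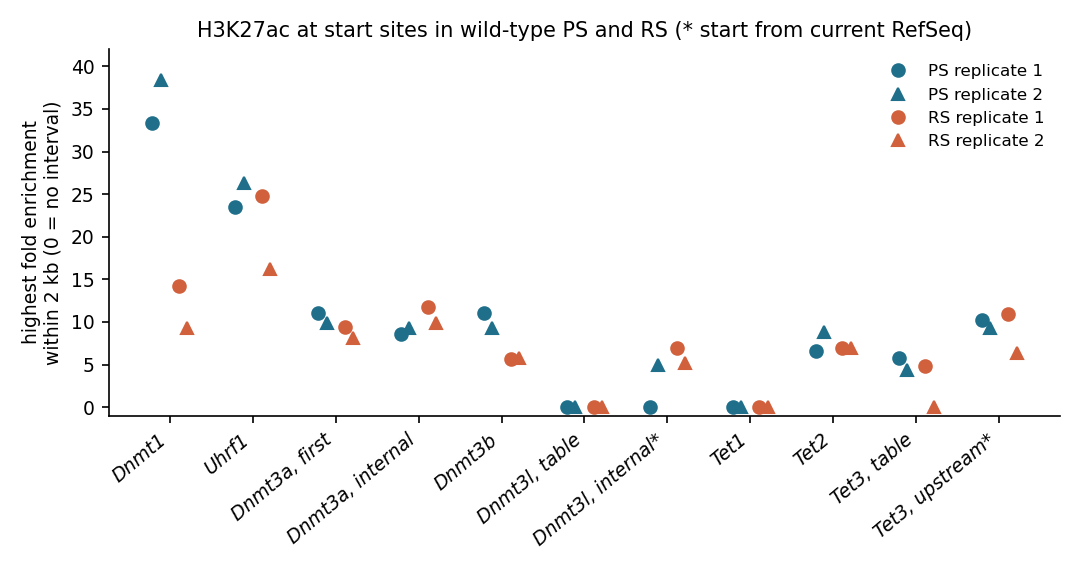
Highest fold enrichment of H3K27ac within 2 kb of single starts, in wild type samples, with 0 where no interval was called. Starts marked with a star are of current RefSeq and not in the tables. Dnmt1 lies at 33.3 and 38.4 in PS and at 14.2 and 9.29 in RS, and the Dnmt3l and Tet1 starts of the tables are at 0 in every sample.

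**Figure D5:**
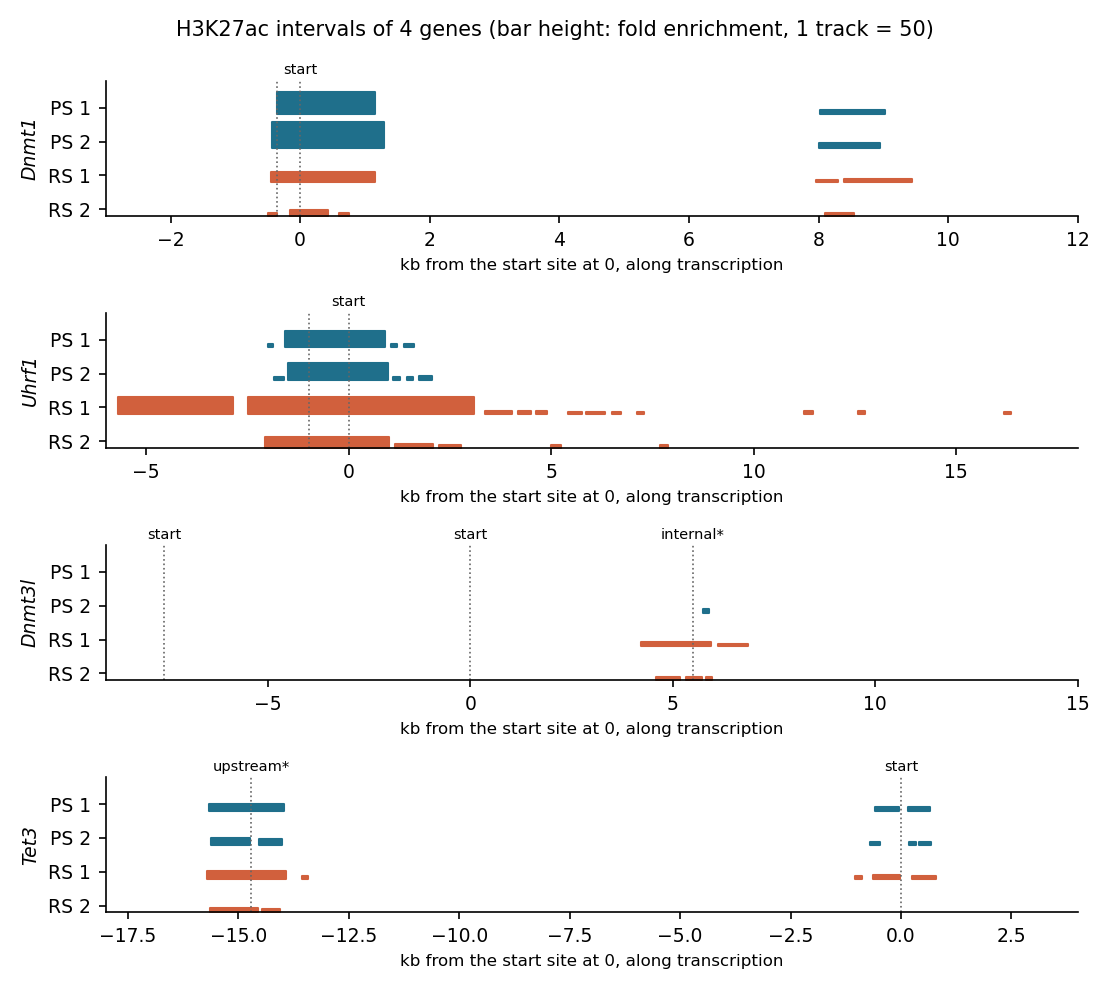
H3K27ac intervals around the starts of Dnmt1, Uhrf1, Dnmt3l and Tet3, in kb from a start along the direction of transcription, 1 track for each wild type sample. Bar height is the fold enrichment and dotted lines mark starts, with a star for those of current RefSeq only. The bar at Dnmt1 is shorter in height in RS, the block at Uhrf1 is wider in RS, and Dnmt3l has its intervals about 5 kb after the start at 0.

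Over the 8 genes, the 118 intervals were unevenly spread, with 18 and 23 in PS and 47 and 30 in RS. They merged into 52 regions, of which 9 were in all 4 samples (17.3%, against 18.2% of all merged regions). RS replicate 1 alone held 26 of the 52 (50%, against 41.3% of all). Most of those regions belonged to *Uhrf1* or *Dnmt3a*. None was in both PS samples and no RS sample, a pattern that 6.37% of all merged regions have. Of the 118, 83 had a -log10 p of at least 5.

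For each member with a mean RPKM of at least 1, the genes of nearest pattern were found over 8 values. These were the log2(RPKM + 1) of 4 samples and the log2(1 + fold enrichment) of 4 samples. Nearest to *Dnmt1* were *L3mbtl2* and *Exd2*, with a root mean square distance of 0.21 and 0.23. *L3mbtl2* had an RPKM of 41.3 and 42.4 in PS and 6.80 and 7.69 in RS, with a fold enrichment of 31.7 and 35.6 in PS and 14.6 and 9.87 in RS. Nearest to *Uhrf1* were *Klc2* (0.13) and *Atp6v1h* (0.16), to *Dnmt3a* were *Pigh* (0.15) and *6030458C11Rik* (0.16), to *Dnmt3b* were *Plxnd1* (0.12) and *Cyb5r1* (0.13), and to *Dnmt3l* were *Defb11* (0.12) and *4933416M06Rik* (0.13). *Dnmt3l* and its 2 nearest genes had a fold enrichment of 0 in all 4 samples, as 36.9% of all genes did, so their match rests on low RNA values alone. The samples are the same for each pair, so these distances are descriptions.

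Genes that act beside the 8 moved in both directions in dKO RNA. Among readers of methyl-CpG and their relatives, *Mbd4*, a glycosylase that repairs deaminated methylcytosine, rose by 1.84 ± 0.22 (SE, edgeR adjusted p = 1.44e-04), with an RPKM of 1.1 and 1.18 in PS and 3.97 and 4.0 in RS. *Mbd2* rose by 1.45 on the log2 scale. *Mbd3*, a subunit of the NuRD complex whose mammalian form does not bind methylated CpG selectively, fell from 92.8 and 104 RPKM in PS to 36.8 and 42.3 in RS. *Mbd1* fell by 2.35, *Zbtb4* fell by 1.15 and *Uhrf2*, the paralog of *Uhrf1*, fell by 0.60 on the log2 scale.

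Of 11 partners of the methyltransferases, 10 were tested, and 3 rose and 2 fell. *Zfp57*, which guards methylation at imprinted regions, rose by 2.01 ± 0.21 (SE, edgeR adjusted p = 6.41e-05). *Usp7*, a deubiquitinase that binds DNMT1 and UHRF1, rose by 0.84 in RS, as did *Cdca7*, which recruits the remodeler HELLS. *Trim28*, the corepressor that ZFP57 recruits, fell by 1.04 and *Pcna*, the replication clamp, fell by 0.75. The median log2 fold change over the 10 was 0.23, beside 0.01 for all genes.

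Of 11 genes of demethylation and base excision, 7 were tested, 2 rose and 1 fell, with a median of -0.08. *Cxxc5*, a CXXC domain protein, rose by 2.75 ± 0.17 (SE, edgeR adjusted p = 5.19e-06), with an RPKM of 6.76 and 7.37 in PS and 50.7 and 41.9 in RS. *Ogt*, the O-GlcNAc transferase that binds TET proteins, rose by 1.33, and *Xrcc1*, the scaffold of base excision repair, fell by 0.86. *Tdg*, the glycosylase that removes oxidized methylcytosine, had 0 and 6 reads in PS and 0 in both RS samples and was not tested. Of 8 genes of the methyl donor cycle, none rose and 4 fell, with a median of -0.49. *Mtr*, methionine synthase, fell by 1.27 ± 0.14 (SE, adjusted p = 9.92e-05), *Shmt2* fell by 1.20, *Mat2a*, which makes S-adenosylmethionine, fell by 0.78, and *Shmt1* fell by 0.77. The counts of these last 3 lists are to be read beside the 58% of all genes that passed.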

How the data were processed

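RNA-seq reads were aligned by the authors to mm10 (STAR 2.4.2a). The authors kept unique alignments with at most 2 mismatches, and divided reads among RefSeq transcripts by expectation maximization. The deposited estimated counts are whole numbers without normalization, and the RPKM were normalized by the authors for length and library size. Libraries were amplified and are not stated to keep strand. Few or no reads lay on the antisense neighbours (*Gm10485* in *Dnmt3a*, 0 to 1, and *Aire* in *Dnmt3l*, 0). For ChIP-seq, the authors aligned with Bowtie (1.1.1) and called peaks per sample with MACS2 (2.1.0.20140616), as the submitters' processing notes name them; the paper's methods give other versions of both. The deposited lists give the pileup signal at each summit, its fold enrichment (a ratio of pileup to 1 background constant per sample, each plus 1) and the -log10 p and q. Background constants were 0.723 to 1.46 fragments, and read totals are not given, so ChIP depth is known only through them. The deposited lists begin at a -log10 q of 1.38 to 1.97.

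Rows were summed per gene. RNA of RS and PS was compared with edgeR (4.0.16) quasi-likelihood tests (TMM) on genes reaching 10 reads in at least 2 samples. Promoter H3K27ac was compared with limma (3.58.1, with trend) on log2(1 + fold enrichment), for genes with an interval within 2 kb of a start in at least 2 samples. P-values were adjusted over all genes tested (Benjamini-Hochberg). A gene was called at an adjusted p under 0.05 and at least 1.5-fold. The standard error of an edgeR fold change is its size over the square root of F. The scripts were tested on simulated data. Promoter sequences are from RefSeq, and 13 of 14 table starts equal a RefSeq start on GRCm38.p6. The exception is *Tet1*.

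All 8 genes are named. From related lists, genes past the threshold are named, at most 4 in each direction. Part of the result for the methyl-CpG readers is not reported here. For each gene with a mean RPKM of at least 1, the 2 nearest patterns are named. The 8 genes and the lists were chosen with earlier results of these data known. Alternatives were DESeq2 (1.42.0), RLE scaling, filters, windows, pseudocounts, centring, limma on RPKM, a replicate block and leaving out each sample. The fit on transcript rows and the starts of current RefSeq were added after seeing the data. R 4.3.3 and Python 3.11.15 were used.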

Additional observations from a re-analysis of the deposited data

How the results depend on the processing

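*Dnmt1*, *Uhrf1* and *Dnmt3l* kept their RNA call under all 10 alternatives, with log2 fold changes of -2.01 to -1.80, -1.23 to -0.98 and 1.25 to 3.02. *Tet3* lost its call under 5 of 10, including limma on log2(RPKM + 0.1) (adjusted p = 0.0797). Genes of the set called for RNA ranged from 3 to 5. Over all genes, the RNA calls were 7297 with limma on log2(RPKM + 1), 7448 with DESeq2 and 9019 without a filter, against 8497. They were fewer still when either RS replicate was left out, so the RNA counts depend on single samples too. Fits with the replicate number as a block (pairing) called 8723 genes for RNA and 2136 for H3K27ac (510 higher, 1626 lower) and changed no call among the 8 genes. The differences between replicate 1 and replicate 2 of PS and RS correlated at 0.225 for RNA and 0.00257 for H3K27ac, and same-numbered samples are not stated to share an animal.

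The H3K27ac comparison depends on single samples. When 1 sample was left out, 523 to 4761 genes were called (25 to 530 higher, 476 to 4231 lower, against 717 and 2163), and 0 to 2 of the 8 genes. The counts were 540 without PS replicate 1, 523 without PS replicate 2, 4761 without RS replicate 1 and 745 without RS replicate 2, and the lone sample is assumed to vary like the other group. Centring moved the genes higher in RS to 1871 and turned the direction of *Uhrf1* (0.13) and *Tet2* (0.28), neither of which passed. With 1 sample left out, the direction also turned for *Uhrf1* (-0.58 to 0.043), *Dnmt3a* (-0.078 to 0.16) and *Tet2* (-0.30 to 0.066), none past the threshold. A window of 5 kb added *Dnmt3l*, so that 2 genes were called. Counting only intervals within 2 kb of a start left 54 of the 118. The cause of these changes was not tested. Depth limits *Tet1* and *Tet2* RNA, with at most 13 reads in a sample.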
